A study of Micropterus salmoides with 45 samples.

Results

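The genes described here form a module of 71 assembled genes of largemouth bass liver, out of 2660 listed in all, that were higher in severe hypoxia than in control at 8, 12 and 24 h and also higher in moderate hypoxia at 24 h. They were chosen on group means of log2(RPKM + 1), where RPKM is the read number of a gene scaled by its length and by the reads of its library. A gene entered with a mean of 2 to under 100 RPKM over the 15 control libraries and a severe minus control difference under 0.7 at 4 h and of at least 0.8 at each of 8, 12 and 24 h. It also needed a moderate minus control difference of at least 0.6 at 24 h. The level window alone held 2147 genes, and 30 genes met every other condition but not the moderate one. The severe and control libraries of 4 to 24 h and the moderate libraries of 24 h were thus used for the choice, and differences among them are given as a description with no test. The moderate libraries of 0, 4, 8 and 12 h and the severe libraries of 0 h were not used, and the control libraries of 0 h only through the mean level.

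Largemouth bass (Micropterus salmoides) of 6 months were kept without food at 20 °C in 9 tanks of 30 fish, with 3 tanks for each oxygen level. Dissolved oxygen was 7 mg/L in the control group (CG), 3.0 ± 0.2 mg/L in the moderate hypoxia group (MHG) and 1.2 ± 0.2 mg/L in the severe hypoxia group (SHG), where nitrogen gas had driven the oxygen down by 0 h. Liver was sampled at 0, 4, 8, 12 and 24 h, with 3 libraries for each level and time. All fish, controls included, were fasted and confined in closed tanks. Whether a group's libraries stem from separate tanks or fish is not in the labels, so the p-values reflect only the spread of these libraries, which may be technical. A tank effect and an oxygen effect cannot be told apart, since no tank held more than 1 oxygen level.

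Animal cells sense falling oxygen through enzymes that need oxygen to mark hypoxia-inducible factors for destruction. When oxygen is short these factors persist and raise transcription of genes for glycolysis, glucose uptake and red cell formation, while other pathways slow protein synthesis and growth. In fish the liver stores glycogen and lipid and releases glucose to other organs during hypoxia, and fasting alone also shifts its gene expression over a day. Responses that appear after several hours can include direct targets of such factors as well as genes that follow earlier steps. Which of these classes the 71 genes belong to cannot be read from the files: their identifiers come from a de novo assembly, and 0 of the 2660 identifiers matched the reference gene table. Genes are therefore given by identifier with no function, and liver markers could not be checked.

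The members were mostly of low to middling abundance. Their control means ran from 2.02 to 50.7 RPKM with a median of 4.74 RPKM, against a median of 6.50 RPKM for all genes of the level window. Of the 71, 58 had a control mean under 10 RPKM and 5 reached 20 RPKM or more. The shortest member was 283 bp long and the longest 13829 bp, and the median length was 3249 bp, against 2739 bp in the level window. Read numbers recovered from the RPKM values gave library totals of 29986862 to 33433838, and each member had a median of 87 to 12980.5 reads per library. No member had a value of 0, and the lowest was 6 reads. Some control values were still near silence: c85429_g3, chosen after its values were seen, held 0.15, 1.16 and 0.89 RPKM in control at 24 h. All 71 passed the filter of at least 1 RPKM in at least 3 libraries. The list of control 8 h replicate 2 was short, and 5 members have no value there. The within-group SD of control libraries on the log2 scale had a median of 0.41 over the members and 0.43 over the window.

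In severe hypoxia the members stood a little above control at 4 h, about a doubling on the RPKM + 1 scale at 8 h, and highest at 12 and 24 h. The median severe minus control difference on the log2(RPKM + 1) scale was 0.41, 1.10, 1.69 and 1.51 at 4, 8, 12 and 24 h. Over all 2656 genes tested these medians were 0.08, -0.01, 0.08 and 0.22. The listed genes held from 10.89% (control 4 h replicate 3) to 14.95% (severe 24 h replicate 1) of a library's recovered reads. Shares and medians of all genes, here and below, thus describe this list and not every gene of the liver. All 3 severe libraries lay above all 3 controls for 59, 70 and 68 members at 8, 12 and 24 h, where 28%, 38.7% and 41.8% of all genes did. The rule fixed these gaps, and nothing is read from the counts. At 4 h, where the rule set an upper bound, 9 members were so separated, 12.7% against 12.5% of all genes. In bulk liver, more cells of a type and more RNA per cell cannot be told apart.

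In the median over the members, moderate hypoxia gave smaller differences from control than severe hypoxia at each time. After quantile normalization the medians at 24 h were 1.15 in moderate and 1.18 in severe hypoxia, so the gap at 24 h depended on the scaling. The median moderate minus control difference was 0.13, 0.59, 0.44 and 1.19 at 4, 8, 12 and 24 h, against 0.07, 0.01, -0.03 and 0.01 over all genes. It was larger at 8 h than at 12 h in 51 of 71 members, and larger at 24 h than at 12 h in 70. Without moderate 12 h replicate 2 the 12 h median was 0.60, no lower than that of 8 h. With all libraries kept, quantile normalization gave 0.58 at 8 h and 0.57 at 12 h. The dip at 12 h thus depended on that library and on the scaling. The 4 h median had no stable sign: leaving out control replicate 2 of that time gave -0.07, leaving out control replicate 3 gave 0.36, and leaving out moderate replicate 1 gave -0.10. In severe hypoxia the difference was larger at 12 h than at 8 h in 65 members and had its maximum at 12 h in 37, while 32 members reached theirs at 24 h and 2 at 8 h. The maximum of the moderate difference fell at 24 h in 66 members, as the rule favoured, and 5 had it at 8 h. At 24 h all 3 moderate libraries lay above all 3 controls for 57 members, 80.3% against 24.9% of all genes, again by the rule's choice. Severe stood above moderate by a median of 0.24, 0.55, 1.38 and 0.46 at 4, 8, 12 and 24 h. Over all genes these medians were -0.04, -0.04, 0.08 and 0.17. The levels were thus farthest apart at 12 h, when all 3 severe libraries lay above all 3 moderate ones for 58 members, 81.7% against 30.2% of all genes. At 4 h this held for 12 members, 16.9% against 9.56%. The count was 19 at 8 h, 26.8% against 14.1%, and 35 at 24 h, 49.3% against 30.7%. Severe hypoxia entered the rule at all of these times and moderate hypoxia, as a lower bound, only at 24 h, so the gaps are descriptive. The 12 h gap includes moderate replicate 2, the lowest of its group for 48 of 66 members. It was not computed without that library or after quantile normalization.

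**Figure D1:**
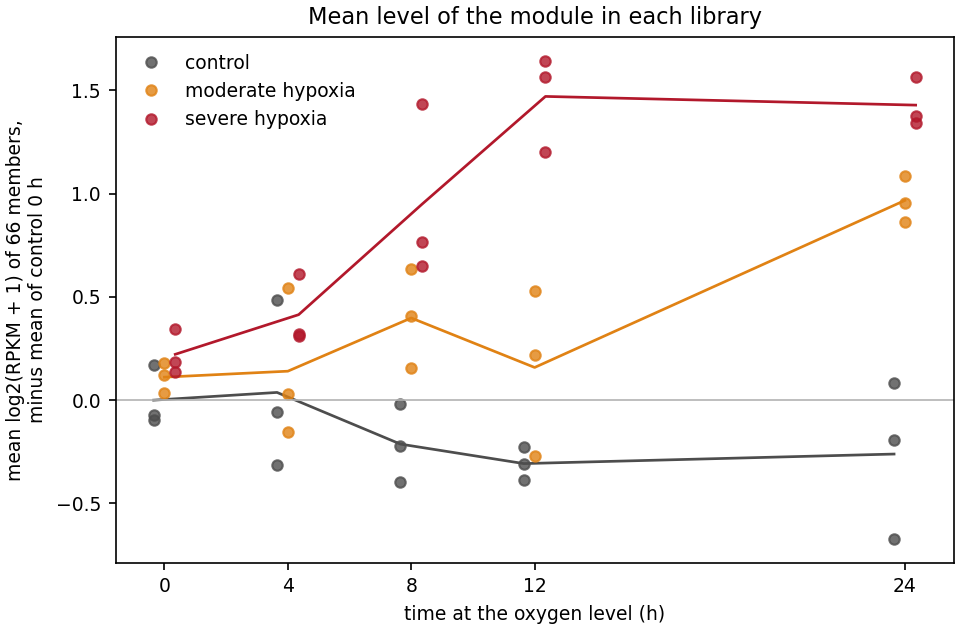
Mean log2(RPKM + 1) of the 66 members listed in every library, relative to the mean of the control 0 h libraries (y axis), by time in hours (x axis); points are libraries and lines join the 3-library means of control, moderate and severe hypoxia. Severe libraries stand highest at 12 and 24 h, the moderate mean is lower at 12 h than at 8 h, with replicate 2 below the control 0 h mean, and 1 control library at 4 h lies well above its group.

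The plot of library means shows how far single libraries carry the group means. Relative to control 0 h, the mean over 66 members was 0.41 ± 0.17, 0.95 ± 0.42, 1.47 ± 0.23 and 1.43 ± 0.12 (SD, n = 3) after 4, 8, 12 and 24 h of severe hypoxia. The wide spread at 8 h came from replicate 3, at 1.43 against 0.65 and 0.76, which was the highest of its group for 56 of 66 members. Moderate hypoxia stood at 0.14 ± 0.36, 0.40 ± 0.24, 0.16 ± 0.40 and 0.97 ± 0.11 at the same times. At 12 h its replicate 2 stood at -0.27, against 0.53 and 0.22 in replicates 1 and 3, and was the lowest for 48 members. Control replicate 3 at 4 h stood at 0.48, the highest of its group for 49 members, and control replicate 1 at 24 h at -0.67, the lowest for 51. Over all tested genes listed in every library these 2 control libraries stood low, at -0.22 and -0.25. In control replicate 3 at 4 h the members and the list thus lay on opposite sides of the control 0 h mean. At 24 h of moderate hypoxia the 3 libraries lay close together, from 0.86 to 1.09.

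Single libraries decided part of the membership. Without severe 8 h replicate 3 the rule kept 44 genes, all among the 71, and the median severe difference at 8 h was 0.88 in place of 1.10. Without control 4 h replicate 3 the median severe difference at 4 h was 0.60 in place of 0.41, and 23 members reached the bound of 0.7. These 23 met the bound at 4 h only with that control library included. In the other direction, the median was 0.25 without control 4 h replicate 2, with 22 members below 0, and 0.27 without severe 4 h replicate 3. Without control 24 h replicate 1 the median moderate difference at 24 h was 1.01 in place of 1.19.

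**Figure D2:**
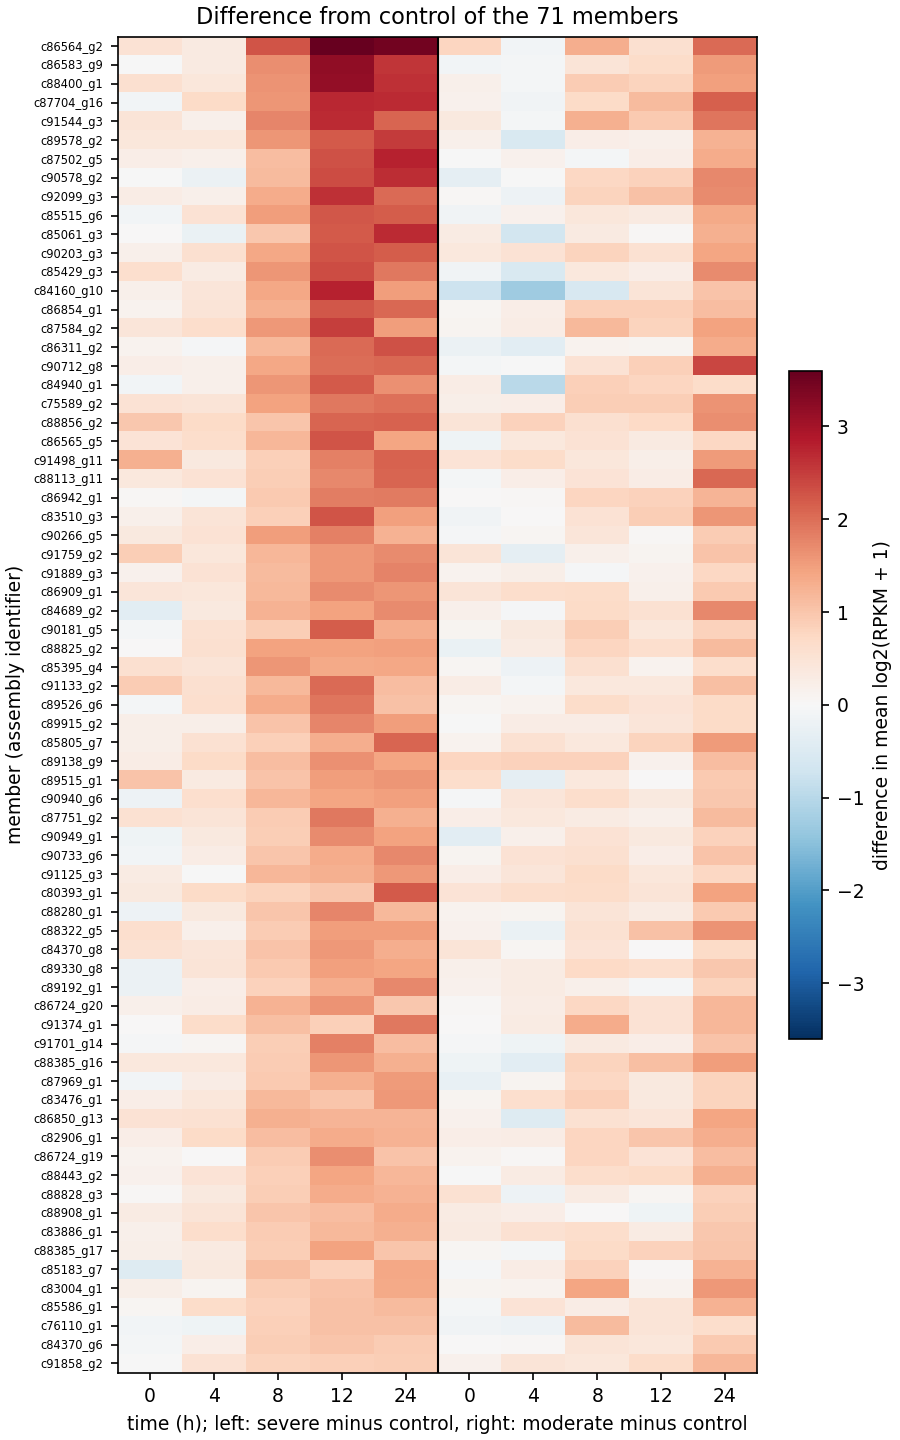
Difference from control on the log2(RPKM + 1) scale (colour) for each of the 71 members (rows) at each time in hours (columns), for severe and moderate hypoxia. Severe columns are strongest at 12 and 24 h and moderate ones at 24 h, and no member is below control at 8, 12 or 24 h of severe hypoxia, as the rule required.

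The member with the largest severe difference was c86564_g2, with 3.11 on the log2 scale as the mean of 8, 12 and 24 h. In severe hypoxia it was listed at 13.0, 17.4 and 40.2 RPKM at 8 h, then 74.7, 96.1 and 34.9 at 12 h, and finally 66.5, 52.4 and 50.5 at 24 h. Its control libraries held 4.63, 2.97 and 3.17 RPKM at 8 h, then 4.64, 2.71 and 6.44 at 12 h, and finally 2.66, 7.26 and 3.56 at 24 h. Every severe library lay above every control at these times, and the lowest severe value at 12 h was still above the highest at 4 h. At 4 h the groups overlapped, with 10.1, 8.36 and 17.0 RPKM in severe hypoxia and 6.19, 4.12 and 24.9 RPKM in control, where replicate 3 was the highest of the 6 libraries. Under moderate hypoxia c86564_g2 stood at 20.3 ± 1.61 RPKM (SD, n = 3) at 24 h but at 7.42 ± 2.85 at 12 h, when severe hypoxia stood at 68.6 ± 31.1.

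The next was c86583_g9, with a mean difference of 2.48. In severe hypoxia it was listed at 8.54, 10.6 and 17.3 RPKM at 8 h, then 24.0, 24.1 and 16 at 12 h, and finally 19.1, 18.9 and 20.0 at 24 h. Control held 2.97 ± 0.14, 1.41 ± 0.24 and 2.56 ± 1.19 RPKM (SD, n = 3) at 8, 12 and 24 h. The severe and control libraries did not overlap at any of these times, and the 12 h difference was widened by a low control. Moderate hypoxia reached 8.59, 12.2 and 6.46 RPKM at 24 h, all above control and all below severe hypoxia.

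At 24 h of moderate hypoxia the largest differences were those of c90712_g8 and c87704_g16. The first was listed at 19.8, 18.4 and 22.7 RPKM in moderate hypoxia, 24.4, 12.7 and 12.2 in severe hypoxia and 1.66, 4.32 and 3.47 in control. It stood 2.41 above control in moderate and 2.06 in severe hypoxia, and the libraries of the hypoxia levels overlapped. At 12 h the order was reversed, with 6.52 ± 2.63 RPKM in moderate and 15.6 ± 5.52 in severe hypoxia (SD, n = 3). Since c90712_g8 was named for its moderate difference at 24 h, this change of order is only a description. The gene c87704_g16 was listed at 57.5, 58.6 and 75.9 RPKM in moderate hypoxia at 24 h, 101, 78.2 and 96.1 in severe hypoxia and 16.7, 10.4 and 13.9 in control. It stood 2.16 above control in moderate and 2.67 in severe hypoxia, with no overlap between any of the 3 groups. At 4 h its severe difference was 0.68, just under the bound of the rule, and control replicate 3 at 26.6 RPKM was above its other controls at 16 and 8.04.

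The most abundant member in control was c88322_g5, with a mean of 50.7 RPKM over the 15 control libraries. In moderate hypoxia it was listed at 61.9, 44.4 and 70.7 RPKM at 4 h and 57.2, 47.2 and 80.6 RPKM at 8 h. It then held 124, 50.4 and 97.4 RPKM at 12 h and 183, 160 and 152 RPKM at 24 h. In severe hypoxia it stood at 79.5 ± 12.0, 87.2 ± 51.1, 120 ± 32.7 and 155 ± 37.2 RPKM (SD, n = 3) at 4, 8, 12 and 24 h, and the control mean of 24 h was 54.7 ± 17.8. By 24 h the hypoxia levels overlapped, with a difference from control of 1.62 in moderate and 1.5 in severe hypoxia. At 8 h severe replicate 3, at 145 RPKM, stood apart from 47.9 and 68.7 in the other two, and the severe and control libraries overlapped.

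**Figure D3:**
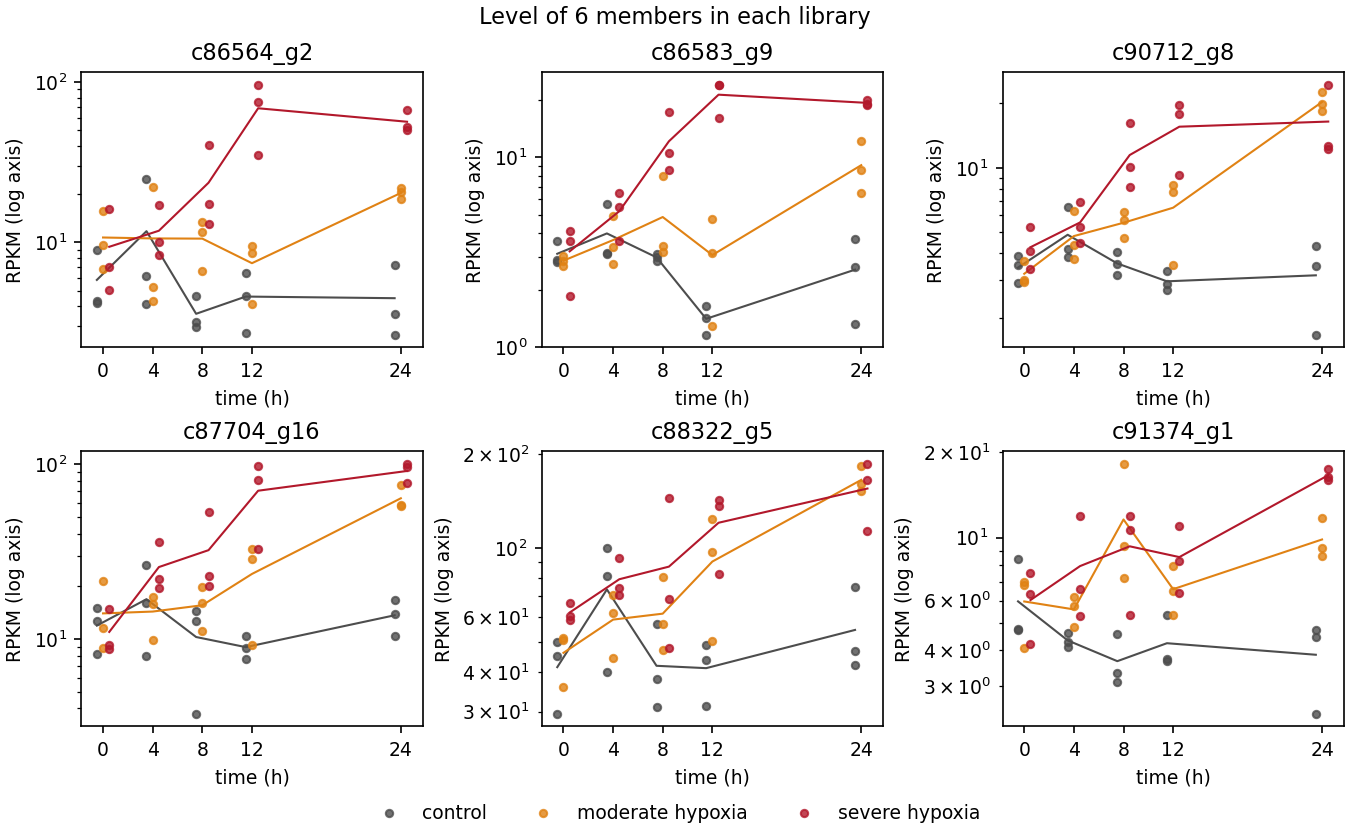
RPKM on a log axis (y) by time in hours (x) for 6 members, with points for libraries and lines for the 3-library means of control, moderate and severe hypoxia. At 24 h of moderate hypoxia c90712_g8 and c88322_g5 reach the range of severe hypoxia, while c86564_g2 and c86583_g9 stay below it; c91374_g1 is highest at 8 h in moderate hypoxia.

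The moderate difference at 24 h as a share of the severe one had a median of 67.8% over the 71 members. This share was taken without quantile normalization, after which the median differences were 1.15 in moderate and 1.18 in severe hypoxia. The lowest share was 41.0%, for c84940_g1, and the highest 138%, for c91858_g2. It was at least 50% in 62 members, and above 100% in 15. Both differences entered the rule, which left out 30 genes only for a moderate difference under 0.6. The shares are thus a description of the chosen members. The gene c91858_g2 was listed at 57.8, 62.0 and 61.0 RPKM in moderate and 50.6, 43.4 and 49.8 RPKM in severe hypoxia at 24 h, without overlap. It was the 1 member for which all 3 severe libraries lay below all 3 moderate ones. In control it held 17.7, 33.6 and 28.4 RPKM, below every hypoxia library of that time. The gene c84940_g1 was listed at 22.9, 24.3 and 22.8 RPKM in moderate hypoxia at 24 h against 26.6, 10.5 and 10.1 RPKM in control. Its control replicate 1 lay above all moderate libraries, so its entry by the moderate condition was not a gap between all libraries.

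**Figure D4:**
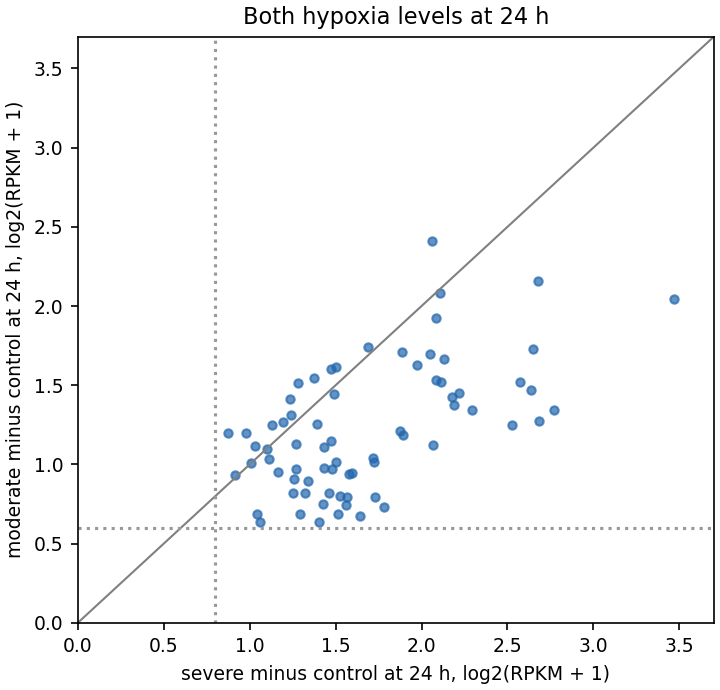
Moderate minus control (y) against severe minus control (x) at 24 h on the log2(RPKM + 1) scale, 1 point per member; the solid line marks equal differences and the dotted lines the bounds of the rule at 0.8 and 0.6. Of the 71 points, 15 lie above the line, and both axes share the same 3 control libraries.

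The 71 members came from 68 assembly components, and 3 components gave a pair each. Such pairs may be pieces or near-identical copies of a single gene and may share reads, so a pair is not 2 separate observations. The pair c86724_g19 and c86724_g20 had severe differences of 0.92 and 1.26 at 8 h, of 1.67 and 1.62 at 12 h, and moderate differences of 1.12 and 1.20 at 24 h. The pair c88385_g16 and c88385_g17 stood at 0.91 and 0.88 at 8 h of severe hypoxia and at 1.51 and 1.01 at 24 h of moderate hypoxia, at levels of 6.16 and 32.2 RPKM in control. These pairs had like courses. The pair c84370_g6 and c84370_g8 differed more: at 12 h c84370_g6 held 7.72, 6.92 and 5.92 RPKM in severe hypoxia and c84370_g8 held 13.7, 12.1 and 5.36, from control means of 3.67 and 2.05 RPKM. 

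The control libraries themselves drifted down for many members. Against control 0 h the median change was -0.04, -0.18, -0.35 and -0.26 at 4, 8, 12 and 24 h on the log2(RPKM + 1) scale. Members below their 0 h mean numbered 52, 56 and 55 of 71 at 8, 12 and 24 h, which is 73.2%, 78.9% and 77.5%, against 47.0%, 49.2% and 52.0% of all genes. At 12 h all 3 control libraries lay below all 3 of 0 h for 28 members, 39.4% against 15% of all genes. This held for 13 members at 8 h, 18.3% against 6.85%, and for 9 at 24 h, 12.7% against 7.91%. The rule favours low controls at these times, so this is a description. Without control 24 h replicate 1 the 24 h median was -0.04. Against their own 0 h libraries the severe groups stood at 0.73, 1.18 and 1.15 at 8, 12 and 24 h in the median. Over all genes these medians were 0.02, 0.02 and 0.12. The rule chose the members for high values in these severe libraries, so this rise is also a description.

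The moderate course against its own start uses no control library and, up to 12 h, no library of the rule. None of the 71 members was called higher at 4, 8 or 12 h (limma, Benjamini-Hochberg adjusted p under 0.05 over all genes), where 0.0377%, 0% and 0.113% of all genes were called higher. At an unadjusted p under 0.05, 0, 8 and 6 members were higher at 4, 8 and 12 h, and 3 were lower at 12 h. Of all 2656 genes, 132, 213 and 316 had such a p in either direction. Limma-voom on the recovered reads also called 0 members at each time. At 8 h 57 of 71 members had a positive change, 80.3% against 49.5% of all genes, with a median of 0.28 on the log2 scale against 0.00. All 3 libraries of 8 h lay above all 3 of 0 h for 12 members, 16.9% against 6.36% of all genes. Leaving out moderate 8 h replicate 1 brought the median to 0.15 and leaving out replicate 2 to 0.41. At 4 h the median was 0.06, and -0.13 without moderate 4 h replicate 1, with 4 members separated upward, 5.63% against 3.88%, which is near the background.

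At 12 h of moderate hypoxia the median change from 0 h was -0.02, with 34 of 71 members positive, 47.9% against 38.2% of all genes. The median over all genes was -0.11 at that time, and after quantile normalization it was 0.00 for all genes and 0.12 for the members, so the sign of the members' median changed with the scaling. Upward separation held for 5 members, 7.04% against 5.05%. Without moderate 12 h replicate 2 the median was 0.19, and without replicate 1 it was -0.20. At 24 h, where the rule used the moderate libraries, the median was 0.79 and 48 members were separated upward, 67.6% against 19.7% of all genes.

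**Figure D5:**
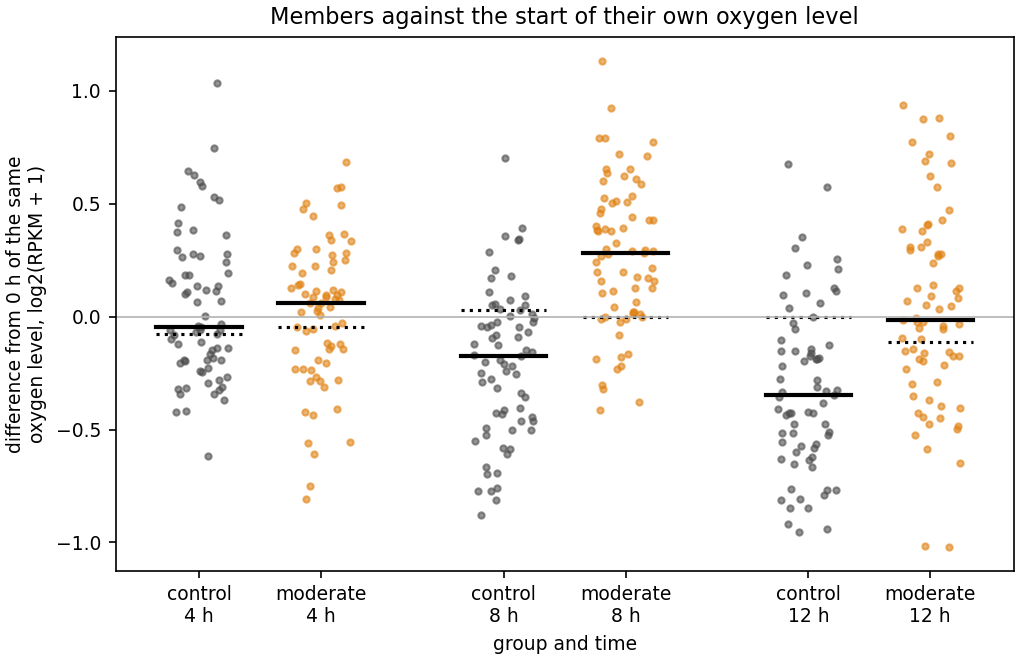
Change from the group's own 0 h mean on the log2(RPKM + 1) scale (y) for the 71 members, in control and moderate hypoxia. Times are 4, 8 and 12 h (x). The moderate median is 0.28 at 8 h and -0.02 at 12 h, while the control median is below 0 at both times.

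The smallest p at 8 h belonged to c88825_g2, which was chosen after its values were seen. It was listed at 2.52, 2.40 and 3.48 RPKM at 0 h and 6.77, 4.62 and 7.44 RPKM at 8 h of moderate hypoxia, without overlap. Its change of 0.93 on the log2 scale (SE 0.31) did not pass over all genes (limma adjusted p = 0.417, from 0.232 to 0.780 over 13 alternatives). At 12 h the smallest p was that of c85805_g7, also chosen after its values were seen. It held 15.6, 16 and 16.5 RPKM at 0 h and 36.4, 20.2 and 37.5 RPKM at 12 h of moderate hypoxia, again without overlap, and its change was 0.88 (SE 0.29, limma adjusted p = 0.153, from 0.0540 to 0.545 over 13 alternatives). In the other direction c89515_g1, likewise chosen after its values were seen, was listed at 7.89, 9.22 and 11.3 RPKM at 0 h and 5.78, 3.48 and 3.46 at 12 h. Its change was -1.02 (SE 0.41, limma adjusted p = 0.291) and did not pass.

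Against control at the same time, moderate hypoxia before 24 h gave 1 call. The control libraries of 4, 8 and 12 h also entered the rule, which limits what these comparisons add. At 8 h 68 of 71 members were above control and at 12 h 69, against 50.9% and 45.9% of all genes. All 3 moderate libraries lay above all 3 controls for 33 members at 8 h, 46.5% against 11.3% of all genes, and for 10 at 12 h, 14.1% against 8.58%. At 4 h the count was 6, 8.45% against 5.46%. By limma 1 member was called at 8 h, where 0.188% of all genes were called higher, and 0 at 4 h and 12 h, where 0.0377% and 0% were. At an unadjusted p under 0.05, 4, 23 and 13 members were higher at 4, 8 and 12 h, and 2, 0 and 0 were lower. Of all 2656 genes, 231, 427 and 452 had such a p in either direction. Limma-voom called 0 members higher at each time. Without moderate 12 h replicate 2, 12 members were called at 12 h, with a median difference of 0.60 in place of 0.44. In that fit 300 of the 2656 genes were called in either direction, against 0 with all libraries. The calls thus rose over the whole list.

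The member called at 8 h was c91374_g1. It was listed at 18.2, 7.22 and 9.33 RPKM in moderate hypoxia and 3.09, 4.58 and 3.34 RPKM in control, without overlap, and at 10.7, 5.33 and 12.0 RPKM in severe hypoxia. The difference of moderate hypoxia from control was 1.35 on the log2 scale (SE 0.30, limma adjusted p = 0.0389). The call held in 5 of 13 alternatives, with adjusted p from 0.0127 to 0.282, and ended on leaving out any control library of 8 h or moderate replicate 1 or 2, as well as with limma-voom, with a replicate block and in a fit of the compared groups alone. Against its own 0 h libraries at 4.07, 6.83 and 6.97 RPKM the change at 8 h was 0.79 (SE 0.30, limma adjusted p = 0.439), which did not pass. At 12 h moderate hypoxia was back at 7.93, 6.47 and 5.36 RPKM.

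Some members outside that call had wide gaps that did not pass. At 4 h c84160_g10, chosen after its values were seen, was lower in moderate hypoxia, at 4.27, 3.81 and 5.16 RPKM against 8.21, 14.2 and 15.1 RPKM in control, without overlap. Its difference was -1.28 (SE 0.40, limma adjusted p = 0.229), and in severe hypoxia it held 18.3, 21.4 and 11.9 RPKM. The hypoxia levels thus lay on opposite sides of the control mean for this member at 4 h, but the severe and control libraries overlapped. In moderate hypoxia it already stood 0.74 below control at 0 h. From 0 h to 4 h it rose by 0.50 in moderate hypoxia and by 1.04 in control. At 12 h c88322_g5 stood 1.04 above control in moderate hypoxia (SE 0.35, limma adjusted p = 0.145, from 0.0183 to 0.673 over 13 alternatives). It was called in 1 of these 13, the fit without moderate 12 h replicate 2 (log2 1.41, limma adjusted p = 0.0183). That fit called 300 of all genes in either direction.

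At 0 h, just after the oxygen had reached its level, no member was called higher in any comparison. Limma called 0 of 71 for severe against control, moderate against control and severe against moderate hypoxia, where 0%, 0% and 0.0377% of all genes were called higher, and limma-voom called 0 as well. At an unadjusted p under 0.05, 4, 1 and 2 members were higher and 0 lower. Of all 2656 genes, 161, 90 and 109 had such a p in either direction. The severe median was 0.20 above control with 51 of 71 positive, 71.8% against 48.3% of all genes, and the moderate median was 0.10 above control with 48 positive, 67.6% against 56.4%. Severe libraries lay above all controls for 14 members, 19.7% against 9.71%, and moderate libraries for 6, 8.45% against 5.16%. Both use the same 3 control libraries. Severe libraries lay above all moderate ones for 7 members, 9.86% against 6.17%.

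The widest severe gap at 0 h was that of c91498_g11, chosen after its values were seen. It was listed at 18.7, 24.1 and 20.6 RPKM in severe hypoxia, 10.2, 11.9 and 13.5 in moderate hypoxia and 6.22, 7.55 and 11.1 in control. The severe libraries did not overlap the others, and the difference from control was 1.28 on the log2 scale (SE 0.35, limma adjusted p = 0.353, from 0.167 to 0.986 over 13 alternatives). By 4 h it stood at 8.35, 9.16 and 14.4 RPKM in severe hypoxia, within reach of control at 12.3, 7.88 and 4.82 RPKM. At 12 h it was at 40.8, 46.3 and 26.5 RPKM against 9.32, 8.97 and 11.3 in control, so its low point in severe hypoxia was at 4 h.

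The members nearest to each bound were as follows. At 4 h the highest severe difference inside was 0.698, for c89138_g9, and the lowest outside among genes meeting all else was 0.701, for c84597_g1. This bound alone kept out 97 genes. At 8 h the lowest inside was 0.81, for c91858_g2, and the highest outside 0.79, for c88421_g4, and this bound alone kept out 141. The lowest moderate difference at 24 h was 0.64, for c85395_g4, and the highest outside was 0.60 after rounding, for c89243_g4, just under the bound of 0.6. The bounds at 12 h and 24 h of severe hypoxia kept out only 4 and 10 genes alone, with c85183_g7 at 0.84 inside against c85707_g1 at 0.69, and c91858_g2 at 0.87 inside against c89914_g4 at 0.75. The lowest control mean inside was 2.02 RPKM, for c90203_g3, against 1.97 RPKM for c89857_g3, and the level bounds kept out 43 genes below 2 RPKM and 3 above 100 RPKM, the nearest of these being c81809_g1 at 159 RPKM.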

How the data were processed

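Liver RNA was sequenced as 125-bp paired-end reads from a TruSeq kit and assembled with Trinity, per the labels' protocols. The authors deposited 1 table per library; its values were read as RPKM from their pattern, since the headers name no unit. No aligner or counter is given in the sources used here. Whole gene lengths and library totals turned all 117443 deposited RPKM values above 0 into whole reads (tolerance 0.01). Control 8 h replicate 2 listed 2527 genes, and its other 133 values were treated as missing.

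The members and lists were chosen with earlier results of these data known. A limma 3.58.1 model (R 4.3.3, moderated variances with an intensity trend) of the 15 group means was fitted to log2(RPKM + 1) of all 45 libraries for the 2656 genes that reached 1 RPKM in 3 or more libraries. This scale understates the change of low genes. P-values were adjusted over all of them, and a gene is called at an adjusted p under 0.05. The script was tested on simulated data. Python 3.11.15 with pandas 2.3.3 did the rest.

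Members were named by rule: the 2 with the largest mean severe difference, the 2 with the largest moderate difference at 24 h, called members with a mean of at least 5 RPKM, those nearest a bound, the most abundant and those sharing a component. Exceptions are marked as chosen after their values were seen, apart from the ends of a range. Alternatives were a pseudocount of 0.1, no filter, quantile normalization, no trend, a replicate block, limma-voom on recovered reads, the compared groups alone, and each library left out. For the choice of members they were the pseudocount, quantile normalization, the median in place of the mean, and each library left out.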

Additional observations from a re-analysis of the deposited data

How the results depend on the processing

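The 71 members depend on the settings of the rule. A pseudocount of 0.1 gave 79 genes with 58 shared, quantile normalization 60 with 51 shared, and the median of the 3 libraries 52 with 36 shared. Leaving out 1 library gave from 44 genes (without severe 8 h replicate 3) to 91 (without control 8 h replicate 1). Calls against the group's own 0 h and at 0 h were 0 under every alternative run, with 13 for each comparison. At 8 h of moderate hypoxia against control the count of 1 became 2 with quantile normalization, 0 with limma-voom on recovered reads and 0 with only the compared groups, and ran from 0 to 1 with 1 library left out. At 12 h it ran from 0 to 12, and the fit with 12 called 300 of all genes in either direction. The members' median crossed 0 with 1 library left out for moderate hypoxia at 4 h against its own 0 h (-0.13 to 0.18), at 12 h against its own 0 h (-0.20 to 0.19) and at 4 h against control (-0.10 to 0.36). Members named for a tested comparison, of moderate hypoxia before 24 h or of 0 h, kept their sign there. Members named for the rule's own differences were not followed singly under the alternatives. The cause of these shifts was not tested, except that leaving out a library leaves fewer samples.

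With the replicate number as a block the count at 8 h of moderate hypoxia against control was 0, since c91374_g1 had an adjusted p of 0.0528 (limma), and the block changed no other count of calls. Correlations between libraries with the same number ran from -0.498 to 0.249 in the 9 comparisons, and in some comparisons all were positive. No common deviation held across the comparisons, and the numbers were not taken as pairs.

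Quantile normalization moved the median of all genes by more than 0.1 in 3 comparisons. At 24 h of severe hypoxia against control it fell by 0.19 and the members' median went from 1.51 to 1.18. At 4 h it fell by 0.10 and the members' median went from 0.41 to 0.34. For moderate 12 h against its own 0 h it rose by 0.11. At 24 h of moderate hypoxia against control the members' median went from 1.19 to 1.15, close to the 1.18 of severe hypoxia. At 8 h of moderate hypoxia against its own 0 h, the members' median was 0.28 and 0 members were called. Whether 3 libraries a group could resolve changes of that size gene by gene was not tested.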
